A study of Homo sapiens with 6 samples.

Results

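The genes described here make sterols and fatty acids and control how much of each a cell makes. They are 39 genes chosen by name: 19 enzymes of the mevalonate and sterol pathway, 5 regulators of the SREBP transcription factors, 5 genes of sterol uptake, transport and efflux, 5 of fatty acid synthesis and elongation, and 5 of desaturation, activation and lipid assembly. All 39 names matched exactly 1 gene each among 58735 genes in the deposited table, and all 39 were among the 15726 genes with enough counts to be tested. The members were chosen by name, but with earlier results of these data known. Those included a result similar to the adjusted comparison described further on.

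RNA was sequenced from NCI-N87, an established human gastric cancer cell line. In 3 libraries the cells carried the vector PLVX-IRES-Puro-EGLN3, and in 3 control libraries the empty PLVX-IRES-Puro vector. EGLN3 is an oxygen-dependent prolyl hydroxylase, also called PHD3. The labels give 1 day with the vector and 7 days of puromycin selection for 5 libraries, and 5 days with the vector and 7 of puromycin for EGLN3 replicate 3. Puromycin was thus shared by both groups. The labels name neither a clone nor separate cultures, so the p-values rest on library-to-library spread that could be technical.

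Cells build cholesterol from acetyl-CoA through mevalonate, the isoprenoid diphosphates, squalene and lanosterol. They build fatty acids from the same acetyl-CoA through malonyl-CoA. Both routes are driven by SREBP factors, which are held in the endoplasmic reticulum with SCAP and INSIG proteins when membrane sterol is high, and move to the Golgi for cleavage when it is low. LXR receptors act in the other direction on sterol, raising efflux pumps and MYLIP, a ligase that removes lipoprotein receptors. Many cancer cells run both routes at a high rate.

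EGLN3 itself had 10, 11 and 9 counts in the controls, listed here and below as replicate 1, 2 and 3, and 7298, 27674 and 27494 in the EGLN3 libraries, so the vector labels hold in every library (edgeR quasi-likelihood test, log2 fold change 11, SE 0.72, adjusted p = 0.031). Library totals ran from 15157265 to 16767383 counts. Epithelial markers were high, with EPCAM between 143 and 185 FPKM, while CDH17 had at most 8 counts in any library. Of the markers for other cell types, LUM was at 0 throughout, PTPRC, PECAM1, COL3A1, PLIN1 and ADIPOQ had at most 11 counts, and COL1A1 had at most 82. The first principal component of all tested genes held 70% of the variance and did not follow the vector. Controls 1 to 3 scored -36.2, 11.5 and 34.4 on it, and the EGLN3 libraries, in the same order, 59.4, -23.3 and -45.9.

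In the empty-vector cells, ACLY, FASN and SCD were the highest of the 39 per unit of gene length. The deposited FPKM, which divide counts by gene length, averaged 147 ± 27.3 for ACLY, 118 ± 19.0 for FASN and 117 ± 20.4 for SCD (SD, n = 3). ACLY makes cytosolic acetyl-CoA from citrate, FASN assembles palmitate, and SCD puts the first double bond into saturated fatty acids. These 3 spreads overlap, so the order among them is not resolved. Next came FDFT1, the squalene synthase, at 70.0 ± 5.26 FPKM and the sterol-responsive factor SREBF2 at 55.1 ± 5.96 FPKM. SQLE, which oxidises squalene, was level with SREBF2 at 55.0 ± 2.06 FPKM.

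The sterol enzymes spread from FDFT1 down to CYP51A1, the lanosterol demethylase, listed at 2.88 ± 1.26 FPKM. CYP51A1 shares 22645 bases, nearly its whole span, with AC000120.2 on the same strand, which was listed at 0 counts in all 6 libraries. Reads that fit both genes may have gone uncounted, so the CYP51A1 value may lie below the transcript's level and its place in this order is uncertain. SREBF1, the factor more tied to fatty acid genes, measured 35.1 ± 1.90 FPKM. At the low end lay FADS1, the delta-5 desaturase, at 1.11 ± 0.0563 FPKM, and FADS2, the delta-6 desaturase, at 0.232 ± 0.0227 FPKM. The whole annotated span of FADS1, 29694 bases, lies inside that of FADS2 on the opposite strand. Whether reads were counted by strand is not known. Reads that fit both may have gone uncounted, so both values may lie below the transcripts' levels and their places are uncertain. The efflux pumps ABCG1 and ABCA1 were at 0.312 ± 0.137 and 0.0584 ± 0.0363 FPKM. ABCA1 rested on 3 to 18 counts a library and ABCG1 on 15 to 41, so a difference in either was not detectable at this depth unless large.

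**Figure D1:**
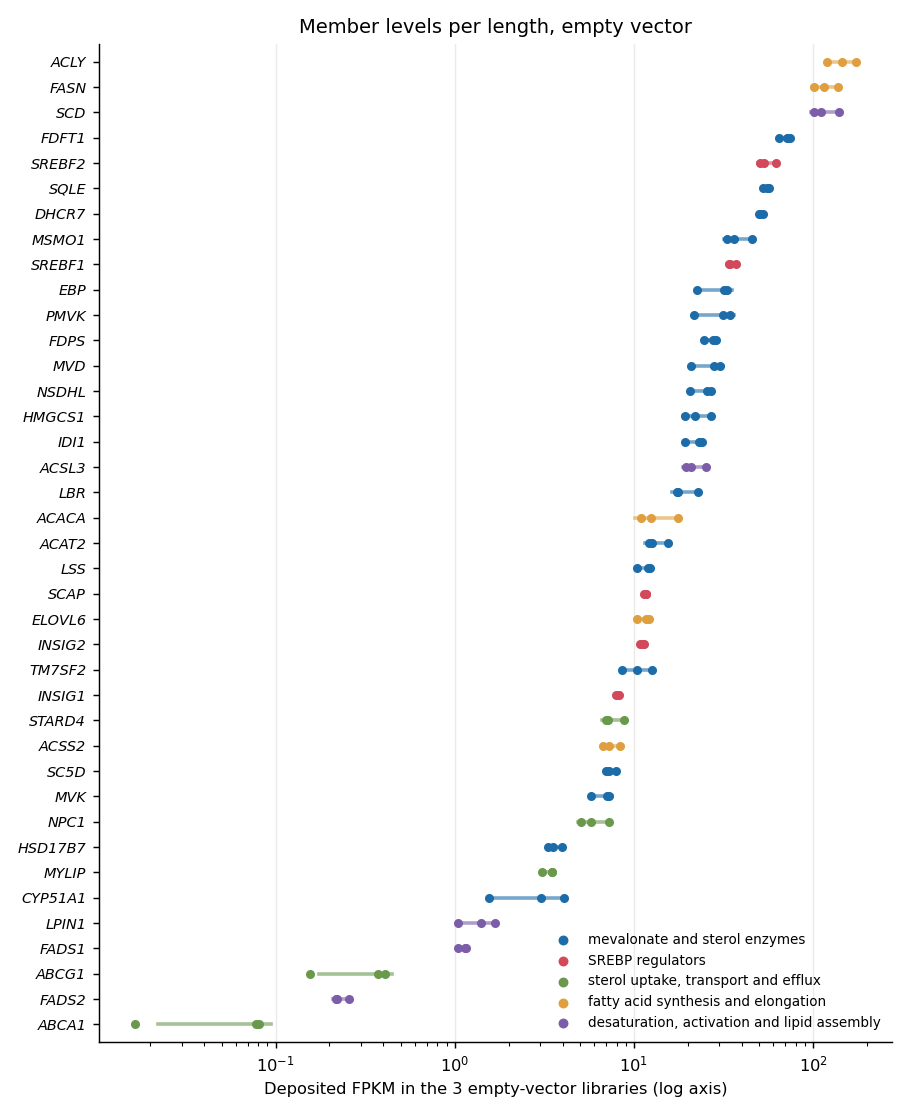
Deposited FPKM of the 39 members in the 3 empty-vector libraries, on a log axis, ordered by their mean, with points for libraries, bars for mean ± SD and colours for roles. ACLY, FASN and SCD average 117 FPKM or more, and ABCG1, FADS2 and ABCA1 lie below 1 FPKM.

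The promoters of the sterol genes share a known layout, in which SREBP binds a sterol regulatory element with the help of NF-Y and Sp1 nearby. The 250 bases before the start, from the RefSeq promoter table on GRCh38.p14, are shown for 4 of the 6 members that rose in the adjusted comparison described further on, and for SREBF2, the 1 member whose window held the sterol element searched for. Capitals mark matches on either strand to TCACNCCAC (the core of the sterol regulatory element), CCAAT (the NF-Y box, which reads ATTGG on the other strand) and GGGCGG (the Sp1 box). For HMGCS1, which has more than 1 start in the table, the upstream one is shown.
MSMO1, chr4:165327419-165327668, plus strand: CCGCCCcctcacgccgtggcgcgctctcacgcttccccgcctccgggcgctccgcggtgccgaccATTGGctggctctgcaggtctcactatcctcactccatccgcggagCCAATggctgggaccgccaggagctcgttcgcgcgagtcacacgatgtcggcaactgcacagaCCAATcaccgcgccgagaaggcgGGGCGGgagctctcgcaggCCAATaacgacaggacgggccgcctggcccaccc
INSIG1, chr7:155297628-155297877, plus strand: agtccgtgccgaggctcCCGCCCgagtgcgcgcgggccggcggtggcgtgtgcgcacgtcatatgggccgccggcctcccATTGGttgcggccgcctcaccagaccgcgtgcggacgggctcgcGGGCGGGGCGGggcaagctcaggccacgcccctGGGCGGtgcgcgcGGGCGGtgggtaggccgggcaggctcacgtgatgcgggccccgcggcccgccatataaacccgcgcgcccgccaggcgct
HMGCS1, chr5:43313413-43313662, minus strand: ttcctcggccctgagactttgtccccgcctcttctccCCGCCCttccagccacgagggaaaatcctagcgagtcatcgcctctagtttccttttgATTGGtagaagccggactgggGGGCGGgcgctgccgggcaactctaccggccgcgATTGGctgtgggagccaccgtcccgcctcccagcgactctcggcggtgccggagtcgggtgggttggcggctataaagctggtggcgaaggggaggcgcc
SCD, chr10:100346983-100347232, plus strand: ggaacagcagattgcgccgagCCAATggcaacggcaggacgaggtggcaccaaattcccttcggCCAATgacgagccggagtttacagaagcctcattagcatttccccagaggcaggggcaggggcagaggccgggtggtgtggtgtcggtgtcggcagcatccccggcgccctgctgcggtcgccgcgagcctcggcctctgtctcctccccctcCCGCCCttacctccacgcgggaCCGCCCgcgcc
SREBF2, chr22:41832855-41833104, plus strand: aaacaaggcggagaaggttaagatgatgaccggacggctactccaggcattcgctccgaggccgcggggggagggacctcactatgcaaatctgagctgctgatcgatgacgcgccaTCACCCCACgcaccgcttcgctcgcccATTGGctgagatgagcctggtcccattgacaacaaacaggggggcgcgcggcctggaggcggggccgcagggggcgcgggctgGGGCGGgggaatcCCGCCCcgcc

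MSMO1 holds 4 NF-Y boxes and 2 Sp1 boxes, and INSIG1 holds 1 NF-Y box and 5 Sp1 boxes, some of which overlap each other. The upstream HMGCS1 window and the SCD window hold 2 of each. LPIN1, which also rose in the adjusted comparison and is not shown, has 3 windows with 0 NF-Y boxes, and 1 of them holds none of the 3 motifs. Of the 39 members, 34 matched the table, with 47 windows because some genes have several starts. SQLE, which also rose in the adjusted comparison, was not among the 34. NF-Y boxes were in 55.3% of these 47 windows and in 32.0% of all 35116 windows of the same length. Sp1 boxes were in 87.2% against 42.6%, and the sterol element core in 2.13%, which is 1 window, against 0.883%. Windows of the same gene can overlap, as in ACLY, and then share boxes. The windows of all genes were not limited to expressed genes or matched for base composition, so these shares are a description only. A match is a run of letters, not a measured binding site. Only 1 form of the sterol element was searched for, so a window without a match may still hold the element in other letters.

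In the comparison of EGLN3 vector with empty vector, none of the 39 members passed. Over all 15726 tested genes EGLN3 was the 1 call, 0.00636% of them (edgeR quasi-likelihood test with Benjamini-Hochberg adjustment, adjusted p under 0.05). DESeq2 and limma-voom called none of the members either. At an unadjusted p under 0.05 there were 3 members, MSMO1, INSIG1 and FADS2, which is 7.69% of the 39, while 1.11% of all tested genes were at that mark. The median log2 fold change was 0.02 over the members, with 21 above and 18 below 0, and 0.01 over all tested genes. In bulk RNA, a change in the cells' makeup and a change in RNA per cell cannot be told apart.

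In 5 members, or 12.8% of 39, the 3 EGLN3 libraries did not overlap the 3 controls in CPM, the counts scaled by library size and TMM factor. Over all tested genes the share was 6.26%. MSMO1, SQLE and INSIG1 lay above all controls, as did 2.64% of tested genes, and SCAP and FADS2 lay below, as did 3.62%.

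MSMO1, a sterol C4-methyl oxidase (chr4:165327623-165343160, plus strand, hg38), measured 96.9, 106 and 133 CPM in controls and 179, 142 and 144 CPM with EGLN3. Its lowest EGLN3 library was thus 142 CPM, just above the highest control. The log2 fold change of 0.47 had an SE of 0.17 and an unadjusted p of 0.032 (edgeR, adjusted p = 1).

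SQLE, squalene epoxidase, measured 249, 240 and 229 CPM in controls and 253, 282 and 317 CPM with EGLN3. EGLN3 replicate 1 stood only just above control replicate 1, and replicates 2 and 3 stood higher. The log2 fold change of 0.25 had an SE of 0.14 and an unadjusted p of 0.11 (edgeR, adjusted p = 1).

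INSIG1, which retains SCAP in the endoplasmic reticulum and is itself an SREBP target (chr7:155297776-155310235, plus strand), measured 30.1, 30.5 and 29.4 CPM in controls and 33.7, 40.9 and 42.9 CPM with EGLN3. Its controls lay close together, and EGLN3 replicate 1 lay nearest to them. The log2 fold change of 0.38 had an SE of 0.14 and an unadjusted p of 0.028 (edgeR, adjusted p = 1). EGLN3 replicate 1 was also the library with the least EGLN3, at 481 CPM against 1640 and 1717 CPM in replicates 2 and 3, and the one farthest out on the first component. The part of either in these values was not tested.

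SCAP, the escort of SREBP (chr3:47413694-47477126, minus strand), lay below all controls by a narrow margin. It measured 76.4, 75.4 and 74.3 CPM in controls and 71.7, 64.4 and 65.0 CPM with EGLN3, a log2 fold change of -0.17 (SE 0.12; edgeR, adjusted p = 1). FADS2 (chr11:61792980-61867354, plus strand) had 42, 45 and 39 counts in controls and 27, 26 and 27 with EGLN3. In CPM this was 2.44, 2.87 and 2.45 against 1.78, 1.54 and 1.69, with a log2 fold change of -0.63 (SE 0.22; edgeR, unadjusted p = 0.024, adjusted p = 1). Its annotated span shares 29694 bases with FADS1 on the opposite strand and 4265 bases with FEN1 on the same strand, and no source used here says whether reads were counted by strand. Reads in the shared bases may have gone to either gene or may have gone uncounted.

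**Figure D2:**
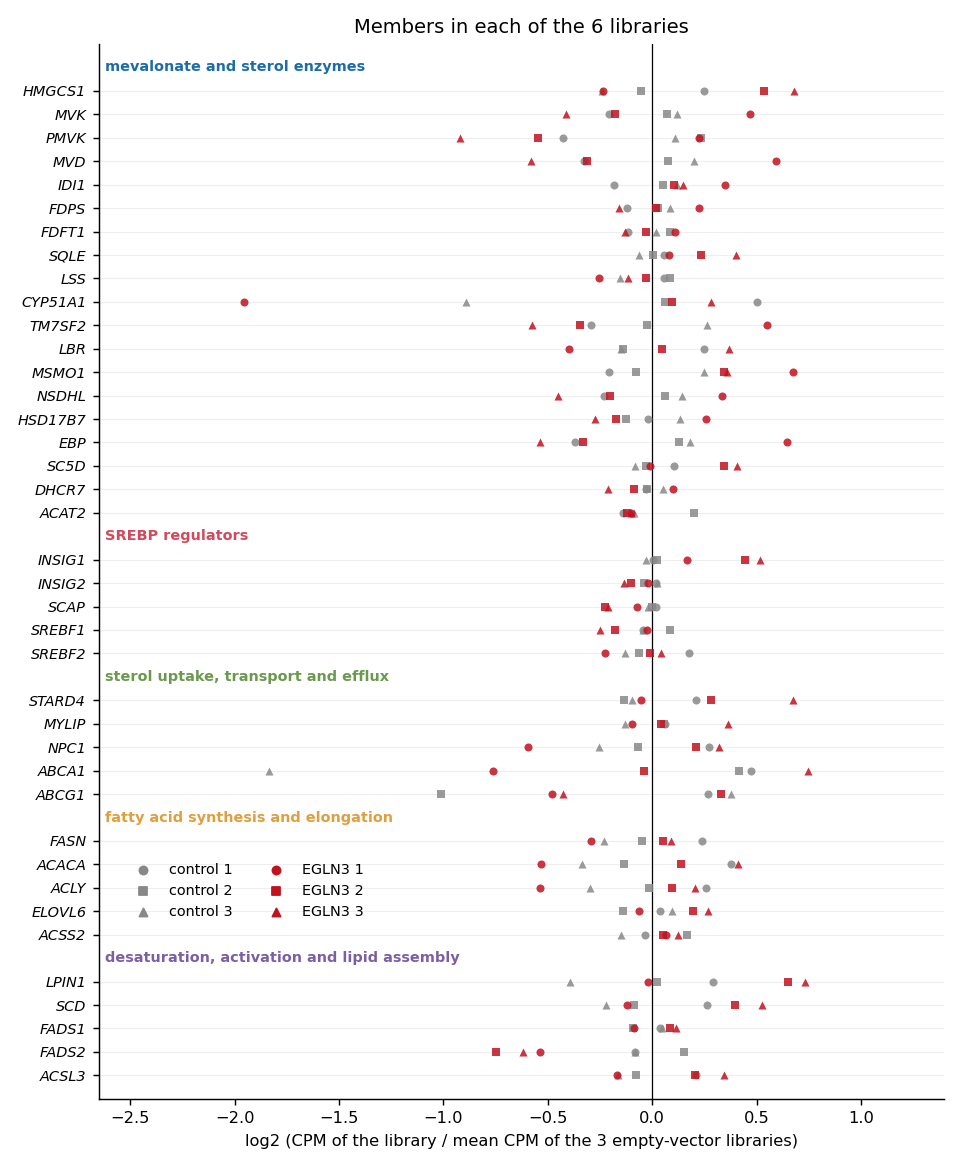
Level of each of the 39 members in each library as the log2 ratio to the mean CPM of the 3 controls, in grey for empty vector and red for EGLN3 vector, with a shape per replicate number. Red and grey points are apart for MSMO1, SQLE, INSIG1, SCAP and FADS2 and overlap in the other 34 members.

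Among the 19 mevalonate and sterol enzymes, 9 had a positive and 10 a negative log2 fold change, with a median of -0.01 and none called. In the adjusted comparison described further on, that median had the other sign, at 0.05. The condensing enzyme HMGCS1 measured 129, 104 and 91.7 CPM in controls and 92.0, 157 and 174 CPM with EGLN3. Its 2 highest libraries were EGLN3 replicates 2 and 3, but EGLN3 replicate 1 was as low as control replicate 3 (log2 fold change 0.38, SE 0.26). SC5D, the lathosterol desaturase, measured 44.9, 40.9 and 39.4 against 41.4, 52.9 and 55.4 CPM (log2 fold change 0.26, SE 0.16). EGLN3 replicates 2 and 3 were again the 2 highest libraries, while EGLN3 replicate 1 lay among the controls.

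The kinase PMVK, which makes mevalonate diphosphate, had the lowest log2 fold change of the enzymes, -0.33 (SE 0.33). Its levels of 28.0, 44.4 and 40.8 CPM in controls and 44.1, 25.8 and 19.98 CPM with EGLN3 overlapped. CYP51A1 measured 14.8, 10.9 and 5.65 against 2.70, 11.2 and 12.7 CPM, a log2 fold change of -0.24 (SE 0.59). Its highest library exceeded its lowest by 5.49 times, and both the lowest EGLN3 library and the lowest control lay well under the rest. Its counts are uncertain because of the overlap with AC000120.2, and it shares a further 3030 bases with AC000120.3, also at 0 counts. The deposited table also holds 3 processed pseudogenes of CYP51A1, with at most 11 counts each. The highest count of a pseudogene named after a member was 75, for HSD17B7P2.

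The enzymes in between lay close to 0. The log2 fold change was 0.21 (SE 0.14) for IDI1, which isomerises isopentenyl diphosphate, and for the farnesyl diphosphate synthase FDPS 0.04 (SE 0.15). FDFT1 was at -0.01 (SE 0.13) and the cyclase LSS, which closes the sterol rings, at -0.13 (SE 0.13). DHCR7, which carries out the last reduction to cholesterol, was at -0.06 (SE 0.13). MVK, MVD, TM7SF2, LBR, NSDHL, HSD17B7 and EBP lay between -0.07 and 0.04, and the thiolase ACAT2 was at -0.11 (SE 0.14). ACAT2 shares 558 bases with TCP1 on the opposite strand, which had up to 7425 counts. Some reads of either gene may thus have been assigned to the other or gone uncounted.

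Of the 5 SREBP regulators, INSIG1 was the 1 with a positive log2 fold change. SREBF1, which encodes SREBP-1, measured 277, 302 and 277 CPM in controls and 280, 253 and 240 CPM with EGLN3 (log2 fold change -0.15, SE 0.13). SREBF2 measured 476, 403 and 385 against 361, 419 and 434 CPM (-0.06, SE 0.15). INSIG2, the paralog of INSIG1, varied little over the 6 libraries, with 1.12 times between its highest and lowest level (log2 fold change -0.08, SE 0.12). SREBF1 and SREBF2 thus overlapped between the groups while INSIG1 did not. The group median was -0.08, and -0.0024 in the adjusted comparison.

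Among the 5 genes of sterol uptake, transport and efflux the median was 0.11, and none was called. The adjusted comparison turned the sign of this median, to -0.01. STARD4, which carries cholesterol through the cytosol, measured 51.0, 40.2 and 41.2 CPM in controls and 42.5, 53.7 and 70.3 CPM with EGLN3 (log2 fold change 0.33, SE 0.22). NPC1, which exports sterol from lysosomes, measured 74.2, 58.5 and 51.5 against 40.6, 70.9 and 76.6 CPM (0.03, SE 0.27). In both, EGLN3 replicate 1 lay among or under the controls and EGLN3 replicate 3 was the highest library. The annotated span of NPC1 shares 25624 bases with RMC1 on the opposite strand, which had up to 358 counts. Some reads of either gene may have been assigned to the other or gone uncounted. In all, 8 members share bases with a protein-coding gene on the opposite strand. The LXR target MYLIP measured 10.8, 10.7 and 9.42 CPM in controls and 9.63, 10.6 and 13.2 CPM with EGLN3 (0.12, SE 0.17). ABCG1 measured 2.33, 0.958 and 2.51 against 1.39, 2.43 and 1.44 CPM (-0.14, SE 0.43), and ABCA1 was at 0.11 (SE 0.64). The groups overlapped in all 3 of these LXR targets.

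Fatty acid synthesis and elongation had a median of 0.06 in both comparisons, and none of the 5 was called. FASN measured 1318, 1081 and 953 CPM in controls and 912, 1156 and 1191 CPM with EGLN3 (log2 fold change -0.04, SE 0.19). ACLY measured 925, 767 and 631 against 534, 827 and 893 CPM (-0.04, SE 0.24). ACACA, the acetyl-CoA carboxylase that makes malonyl-CoA, measured 234, 164 and 143 against 125, 198 and 240 CPM (0.06, SE 0.29). In all 3 genes EGLN3 replicate 1 was the lowest library and control replicate 3 the next lowest. The elongase ELOVL6 measured 86.4, 76.4 and 89.8 against 80.5, 96.4 and 101 CPM (0.14, SE 0.14). The acetyl-CoA synthetase ACSS2 measured 39.7, 45.6 and 36.6 against 42.6, 42.1 and 44.3 CPM (0.08, SE 0.13). Both overlapped between the groups.

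In the last group, SCD measured 764, 599 and 545 CPM in controls and 585, 838 and 916 CPM with EGLN3 (log2 fold change 0.29, SE 0.22). LPIN1, a phosphatidate phosphatase that also acts in the nucleus, measured 20.2, 16.8 and 12.6 against 16.3, 26.0 and 27.4 CPM (0.49, SE 0.26). For both, EGLN3 replicates 2 and 3 exceeded every control and replicate 1 did not. ACSL3, which activates fatty acids for lipid droplets, was at 0.14 (SE 0.18). FADS1 measured 11.8, 10.8 and 11.9 against 10.8, 12.2 and 12.4 CPM (0.04, SE 0.14), with the groups overlapping. Its counts are uncertain because of the overlap with FADS2. None of the 5 was called, and their median was 0.14, against 0.05 in the adjusted comparison.

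Much of the members' variation lay between libraries of the same group. Control replicate 1 against control replicate 3, and EGLN3 replicate 3 against EGLN3 replicate 1, are differences between libraries labelled with the same vector. EGLN3 replicates 3 and 1 also differ in labelled days with the vector, 5 against 1, and in EGLN3 itself, 1717 against 481 CPM. The part of either in these values was not tested. In 19 of 39 members both differences in level were positive and in 16 both were negative, which leaves 4 mixed. Over 15701 tested genes with a value in these libraries, 42.6% were positive in both and 42.2% negative in both. These pairs lie at the ends of the first principal component within each group and were taken in the same direction. A shared sign in most genes was thus built into the choice of pairs, for members and for other genes.

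The roles differed in their counts on each side of this pattern, a difference that was not tested. Of the 19 sterol enzymes, 13 were lower in control replicate 1 and EGLN3 replicate 3 in these comparisons and 6 were higher. Of the 20 other members, 3 were lower and 13 higher. The 5 SREBP regulators leaned to neither side, with 2 higher, 2 lower and 1 mixed. MVD, the mevalonate diphosphate decarboxylase, measured 100.3, 133 and 144 CPM in controls and 189, 101 and 84.0 CPM with EGLN3, while ACACA (above) ran the other way. EGLN3 replicate 1 was the highest library for 11 of the 19 sterol enzymes and for 0 of the other 20 members, and for 31.6% of all tested genes. It was the lowest for 9 members, and for 31.2% of tested genes. The 19 members that were positive in both had a median gene length of 5566 bases and 46.5% GC, and the 16 negative ones 4229.5 bases and 54.7% GC. The part of length and base composition in this difference was not tested.

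**Figure D3:**
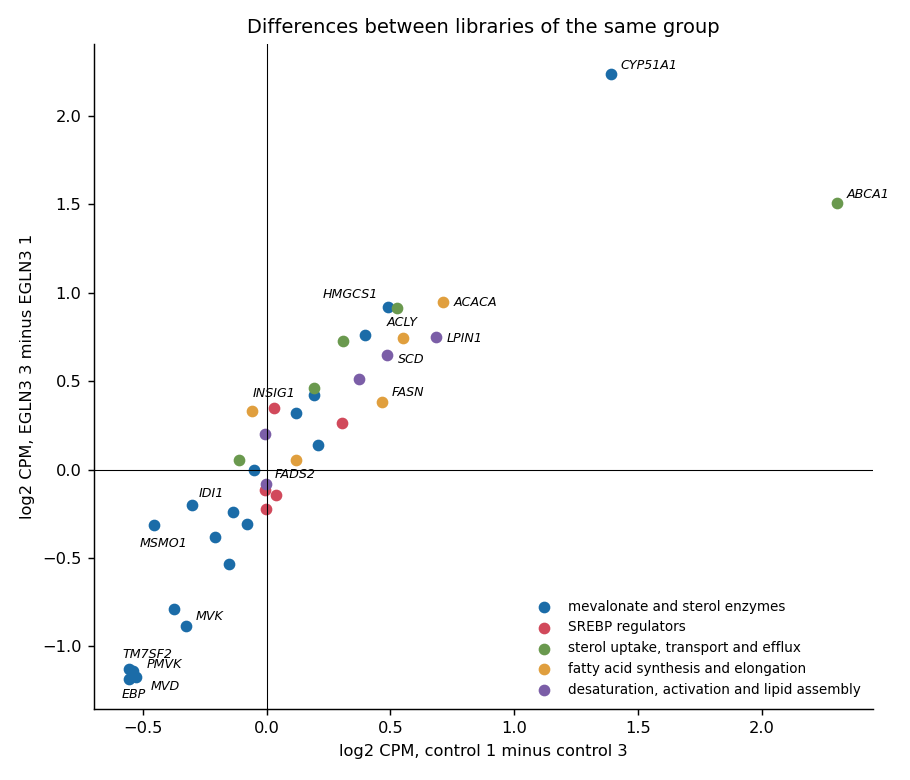
Difference in log2 CPM between control replicates 1 and 3 (horizontal) and between EGLN3 replicates 3 and 1 (vertical) for the 39 members, coloured by role. Points at upper right (CYP51A1, ABCA1, ACACA) and at lower left (EBP, MVD, PMVK, TM7SF2) differ in the same sense within both groups, and 13 of the 19 sterol enzymes lie at lower left.

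An adjusted comparison took this variation into account. It added 1 surrogate variable, estimated by svaseq, to the edgeR model and removed each library's smooth trend on GC content and gene length. In it 6 members rose with EGLN3 and none fell: MSMO1, SQLE and HMGCS1 of the sterol enzymes, INSIG1 of the SREBP regulators, and SCD and LPIN1 of the lipid genes. That is 15.4% of the 39, while 0.343% of all tested genes were called higher, 0.579% lower and 0.922% in either direction. Since the members were chosen with a similar result known, the count supports nothing independently. The SEs treat the surrogate variable and trends as known and may be too small, since the common dispersion fell from 0.0589 to 0.00215 with 3 residual degrees of freedom.

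In the adjusted comparison MSMO1 was 30.9% higher, a log2 fold change of 0.39 with an SE of 0.05 (edgeR, adjusted p = 0.00022). After removal of the surrogate variable and trends its levels were 113, 109 and 121 CPM in controls and 147, 149 and 153 CPM with EGLN3. Such levels keep the group difference while spread within the groups is taken out. LPIN1 rose by 35.3% (0.44, SE 0.09; edgeR, adjusted p = 0.016) and INSIG1 by 26.9% (0.34, SE 0.07; edgeR, adjusted p = 0.013). SCD rose by 18.1% (0.24, SE 0.04; edgeR, adjusted p = 0.0029), HMGCS1 by 17.5% (0.23, SE 0.05; edgeR, adjusted p = 0.019) and SQLE by 15.7% (0.21, SE 0.04; edgeR, adjusted p = 0.019). All 6 log2 fold changes were smaller than in the uncorrected fit, and so were their SEs.

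The calls differed in how far they rested on single libraries. Each adjusted comparison was repeated 6 times with 1 library left out. MSMO1 passed in 6 of these and SCD in 5, SQLE, INSIG1 and LPIN1 in 3 each, and HMGCS1 in 2. Counted over all members, the calls numbered 3, 6 and 7 without control replicates 1, 2 and 3, and 2, 3 and 3 without EGLN3 replicates 1, 2 and 3. Of these calls 2 were lower: CYP51A1 without control replicate 1 (log2 fold change -0.76; edgeR, adjusted p = 0.033) and PMVK without control replicate 3 (-0.34; edgeR, adjusted p = 0.041). With the surrogate variable but without the trends, 10 members were called, the same 6 with IDI1, SC5D and STARD4 also higher and PMVK lower. With the trends alone none was called.

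After adjustment the groups did not overlap in 11 members that lay higher and 6 that lay lower with EGLN3, out of 39. Of all tested genes 24.5% did not overlap, 11.9% higher and 12.6% lower, against 6.26% before adjustment. The adjustment takes out spread within the groups and keeps the group difference, so part of this separation was built in. The remaining 33 members did not pass in the adjusted comparison. FADS2 had the lowest log2 fold change there, -0.52 (SE 0.25; edgeR, adjusted p = 0.38). CYP51A1 stood at -0.51 (SE 0.15; edgeR, adjusted p = 0.1) and PMVK -0.24 (SE 0.08; edgeR, adjusted p = 0.15). INSIG2 was at -0.20 (SE 0.06; edgeR, adjusted p = 0.15) beside the rise of INSIG1. SREBF1 was at -0.0024 (SE 0.04), SREBF2 at 0.02 (SE 0.04) and SCAP at -0.03 (SE 0.05). FASN was at 0.10 (SE 0.04), ACACA at -0.00037 (SE 0.04) and ACLY at -0.06 (SE 0.04). The member median was 0.04, with 22 above and 17 below 0, against -0.0022 over all tested genes.

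**Figure D4:**
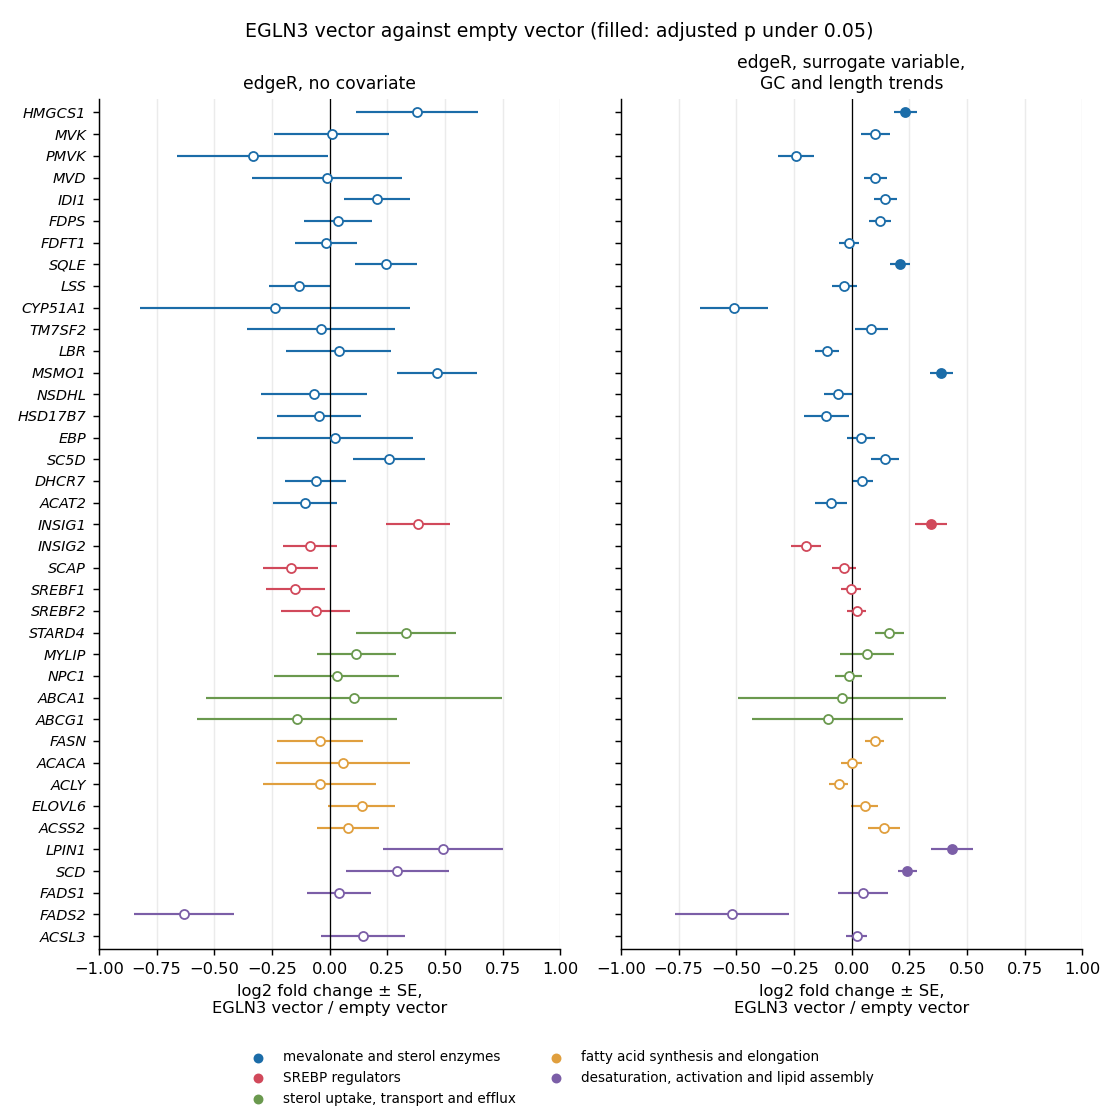
log2 fold change ± SE of the 39 members, EGLN3 vector against empty vector, in the edgeR fit without a covariate (left) and in the adjusted fit (right), coloured by role and filled where the adjusted p was under 0.05. No symbol is filled on the left, and 6 are filled on the right, all above 0.

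Genes of the pathway outside the members were counted from a separate list of 50, of which 48 were tested. None passed in the uncorrected fit, with 27 above and 21 below 0 and a median log2 fold change of 0.01. In the adjusted comparison 0 rose and 1 fell, NPC2, which hands sterol to NPC1 in the lysosome. NPC2 measured 99.8, 138 and 157 CPM in controls and 157, 96.0 and 83.1 CPM with EGLN3, and its unadjusted levels overlapped between the groups (adjusted log2 fold change -0.27, SE 0.05; edgeR, adjusted p = 0.0034). All 9 genes of the isoprenoid branch and all 10 of SREBP processing and sterol-regulated degradation went without a call. The 5 genes of LXR and its partners had uncorrected log2 fold changes from -0.23 to -0.04, with 0 called in either fit.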

How the data were processed

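RNA-seq of 6 NCI-N87 libraries, 3 with EGLN3 vector and 3 with empty vector, was analysed from 2 deposited tables: whole-number read counts per gene, and FPKM, which the authors made from those reads. Per the submitters' processing notes, the tools were DESeq2 1.20.0, featureCounts 1.5.0-p3 and HISAT2 2.0.5 and the build hg38. Those notes give no role for each and say nothing of strand.

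Counts were filtered (filterByExpr), scaled by TMM and tested with edgeR 4.0.16 (robust quasi-likelihood, R 4.3.3), with Benjamini-Hochberg adjustment over 15726 genes and a threshold of 0.05. The adjusted fit added 1 surrogate variable (sva 3.50.0) and, as offsets, each library's spline trend (5 degrees of freedom) on GC content of the longest GENCODE transcript and on deposited gene length. SEs are the log2 fold change divided by the square root of F. FPKM served for levels within the controls and, as log2(FPKM + 1) or log2(FPKM + 0.1) at 0.5 FPKM or more in 3 libraries, for limma 3.58.1. Other alternatives were DESeq2 1.42.0, limma-voom, other scalings and filters, a replicate block and leaving out each library. The scripts were tested on simulated data.

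The members and lists were chosen with earlier results of these data known. Named with full values were members called in either fit and the 2 highest and 2 lowest in each role, and, of the pathway list, genes called in either fit. SC5D, ACACA, MVD and other members given outside this rule were chosen after their values were seen. Libraries of a group differed beyond sampling noise (chi-square per degree of freedom from 8.19 to 106), so none was counted as a duplicate.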

Additional observations from a re-analysis of the deposited data

How the results depend on the processing

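No member was called under any setting without the surrogate variable, and the calls depend on it. With it alone 711 genes and 10 members were called, with the trends added 145 genes and 6 members. The trends alone, a setting added after seeing the data, called 1 gene and no member. Limma-voom and log2(FPKM + 1), filtered or not, called 0 genes, with 190, 229 and 531 at an unadjusted p under 0.05. For EGLN3 itself the log2 fold change then missed the threshold, at 10.8 with limma-voom and 7.12 on both log2(FPKM + 1) settings. With 1 library left out, genes called ran from 0 to 251 and members from 0 to 7 over both fits, and EGLN3 from 10.3 to 11.4. The cause of the other differences was not tested.

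Nothing in the labels says whether the replicate numbers pair the samples. Deviations of libraries with the same number correlated at -0.793, -0.176 and -0.674, and those with unlike numbers from -0.499 to 0.752. Deviations from a group's own mean are tied to each other, and the first principal component dominates them. These correlations therefore cannot decide whether equal numbers share a culture or day. With the replicate block 0 genes were called, against 1 without it, and 23 had an unadjusted p under 0.05. EGLN3 then had a log2 fold change of 10.8, and no member was called.

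The members whose log2 fold change changed sign passed in neither fit. With limma-voom, the sign changed to -0.0339 for MVK, -0.0529 for EBP and -0.00544 for NPC1. Without a filter on low counts, the sign changed to -6.42e-05 for MVK. With the replicate block, the sign changed to -0.0357 for MVK and -0.0628 for EBP. On log2(FPKM + 1), the sign changed to -0.0215 for MVK and -0.0451 for EBP. On log2(FPKM + 0.1), the sign changed to -0.0291 for MVK, -0.0486 for EBP and -0.00197 for NPC1. On log2(FPKM + 1) without a filter, the sign changed to -0.0215 for MVK and -0.0451 for EBP. With the surrogate variable, the sign changed to 0.000937 for MVD, 0.00162 for FDFT1, -0.0344 for LBR, -0.0678 for NPC1, -0.0819 for ABCA1 and -0.0396 for ACACA. With the surrogate variable and trends, the sign changed to 0.102 for MVD, 0.086 for TM7SF2, -0.107 for LBR, 0.0467 for DHCR7, 0.0217 for SREBF2, -0.0135 for NPC1, -0.0416 for ABCA1, 0.0996 for FASN and -0.000366 for ACACA. With the trends alone, the sign changed to 0.107 for MVD, 0.0804 for TM7SF2, -0.0878 for LBR, 0.0475 for DHCR7, 0.0285 for SREBF2 and 0.121 for FASN. With 1 library left out, in the uncorrected or the adjusted fit, 22 members changed sign. The values ran from -0.35 to 0.421 for ABCA1, from -0.456 to 0.241 for ABCG1, from -0.161 to 0.294 for ACACA, from -0.173 to 0.0208 for ACAT2, from -0.187 to 0.166 for ACLY, from -0.757 to 0.205 for CYP51A1, from -0.134 to 0.0843 for DHCR7 and from -0.415 to 0.238 for EBP. They ran from -0.144 to 0.123 for FASN, from -0.0701 to 0.0471 for FDFT1, from -0.0529 to 0.141 for FDPS, from -0.241 to 0.0568 for HSD17B7, from -0.16 to 0.228 for LBR, from -0.202 to 0.0205 for LSS and from -0.428 to 0.207 for MVD. They ran from -0.276 to 0.181 for MVK, from -0.0266 to 0.223 for MYLIP, from -0.139 to 0.278 for NPC1, from -0.308 to 0.0901 for NSDHL, from -0.199 to 0.0319 for SREBF1, from -0.121 to 0.0487 for SREBF2 and from -0.441 to 0.17 for TM7SF2.

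The median of the SREBP regulators moved from -0.08 to -0.0024 with the surrogate variable and trends and to -0.0073 with the trends alone. Counts below about 50 a library limit FADS2, ABCA1 and ABCG1.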
